A study of Mus musculus with 33 samples.

Results

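Writers, erasers and readers of DNA methylation and Polycomb genes were followed here, some of them recurrently mutated in clonal hematopoiesis. They were 10 genes chosen by symbol of the 55376 symbols in each deposited count table. The genes were *Dnmt1*, *Uhrf1*, *Dnmt3a*, *Dnmt3b*, *Tet1*, *Tet2*, *Tet3*, *Ezh1*, *Ezh2* and *Asxl1*, and all 10 were found and passed the filter on low counts in every comparison. RNA was sequenced from hematopoietic stem cells (HSCs), common lymphoid progenitors (CLPs) and granulocyte-macrophage progenitors (GMPs) sorted from the bone marrow of wild-type male C57BL/6 mice, all of them aged 24 to 29 months. Mice were left untreated (O-WT), were given nicotinamide riboside, an NAD+ precursor, in the drinking water for 4 to 6 weeks (O-NR), or were taken off it for 2 months after the same course (O-NR-RC). Cohort 2 held 4 libraries for each of HSCs, CLPs and GMPs in O-WT and in O-NR, 24 libraries in all, and cohort 1 held HSCs of O-WT (2 libraries), O-NR (4) and O-NR-RC (3). No young mice are among the 33 libraries, so every level given here is a level in old marrow. A label field calls the GMP libraries common myeloid progenitors whereas their titles name GMPs, and the marker genes below bear on the granulocyte-macrophage name.

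Most methylated cytosines in mammals sit in CpG pairs. DNMT3A and DNMT3B place the mark on unmethylated DNA, and DNMT1, brought to replication forks by UHRF1, copies it onto the daughter strand. The TET enzymes oxidize methylcytosine, which starts its removal. EZH1 and EZH2 are the alternative catalytic subunits of Polycomb repressive complex 2 (PRC2), which methylates histone H3 at lysine 27, and ASXL1 is a partner of the deubiquitinase BAP1. *DNMT3A*, *TET2* and *ASXL1* are the genes most often mutated in the blood stem cell clones that expand with age in humans, and none of the values below is a genotype. All values are messenger RNA levels, not protein, enzyme activity or methylation.

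The promoters of the members are shown first because several members moved together with genes of DNA replication (below). RefSeq promoter windows on GRCm38.p6, running from 250 bases before to 50 bases after a start site, were found for all 10 members (15 windows). They were searched on both strands for TTCCCGC and TTGGCGC, which are core words of sites for E2F, the factor family that drives S phase genes. These words do not overlap each other, and 4 of the 10 members held one in a window, against 7.79% of the 27025 genes with a window. Counted by window, 4 of the 15 member windows held a word, against 6.81% of all 32851 windows. Member windows were also richer in CpG, with a median of 23 CpGs against 7 over all windows, and 17.1% of windows with at least 23 CpGs held a word. The windows of *Uhrf1* and *Asxl1* that held a word had 12 and 13 CpGs, so that share does not match them. The 29 bases around each word, 5′ to 3′ on the gene's strand, were as follows, with the word in capitals.
Uhrf1, chr17:56303278-56303306 (+), word starting 48 bases before the start site: tgctttctcgcTTCCCGCcacagcgccag
Dnmt1, chr9:20952574-20952602 (−), in 1 of its 3 windows, word starting at base 35 after the start: cgcggggcagcgtTTGGCGCgggctgtgc
Ezh2, chr6:47595009-47595037 (−), word starting at base 5 after the start: ggttgctgcgtTTGGCGCtcggtccggtc
Asxl1, chr2:153345591-153345619 (+), word starting 228 bases before the start: ttctgaccgacTTCCCGCccccttcttta
*Uhrf1*, *Dnmt1* and *Ezh2* were the members that were higher in both progenitors than in HSCs with the largest log2 changes, and *Asxl1* was not called in either comparison with HSCs by the main test. The full 234 bases before the annotated *Uhrf1* gene are given because *Uhrf1* had the largest change of the 10.
Uhrf1, chr17:56303087-56303320 (+): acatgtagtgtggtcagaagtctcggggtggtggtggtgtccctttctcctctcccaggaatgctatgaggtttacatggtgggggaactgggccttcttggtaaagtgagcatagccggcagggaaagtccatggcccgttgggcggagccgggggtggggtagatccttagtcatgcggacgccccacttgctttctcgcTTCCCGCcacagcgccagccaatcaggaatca
These letters describe the windows and no factor binding was measured.

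By position on GRCm38 (Gencode M21 annotation), *Dnmt1* lies on chromosome 9 (20907209 to 20959888, minus strand), *Uhrf1* on chromosome 17 (56303321 to 56323486, plus strand), *Ezh1* on chromosome 11 (101191115 to 101226463, minus strand) and *Ezh2* on chromosome 6 (47530139 to 47595341, minus strand). *Dnmt3b* (153649450 to 153687730) and *Asxl1* (153345829 to 153404007) are neighbours on the plus strand of chromosome 2. *Dnmt3a* is on chromosome 12 (3806007 to 3914443, plus strand), *Tet1* on chromosome 10 (62804570 to 62908996, minus strand), *Tet2* on chromosome 3 (133463679 to 133545139, minus strand) and *Tet3* on chromosome 6 (83362373 to 83459084, minus strand). All 10 are protein coding. Exons of antisense genes overlap 0.8% of the exon bases of *Dnmt3a*, 0.25% of *Tet2*, 2.65% of *Asxl1* and 2.61% of *Ezh2*, and the strand setting of the counting was not given in the sources used here.

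Libraries held 4792380 to 23816042 counted reads. The sorted populations carried their markers, each list summed in CPM (counts scaled to a common library size with TMM). HSC markers such as *Slamf1* summed to 1803 to 2038 CPM in HSCs of cohort 2, to 1054 to 1802 CPM in HSCs of cohort 1 and to at most 229 CPM in CLPs and GMPs, CLP markers such as *Il7r* to 2548 to 4128 CPM in CLPs and GMP markers such as *Mpo* to 17308 to 19963 CPM in GMPs. CLP markers summed to at most 123 CPM in HSCs and GMPs. GMP markers summed to 293 to 578 CPM in CLPs and to 91.1 to 126 CPM in HSCs. Neutrophil markers summed to 20.3 to 188 CPM in CLPs. B and plasma cell markers, which belong to another cell type, ran from 25.1 to 735 CPM in HSCs of cohort 2. Reads over 1732 olfactory and vomeronasal receptor genes were summed as a further description of the libraries. They came to 830 to 7992 CPM in cohort 2 and to 4273 to 14680 CPM in cohort 1. They were highest in cohort 2 in replicate 3 of CLP O-WT, which was also the library with the fewest reads. The labels do not say whether replicates came from separate mice, so p-values measure the spread between these libraries, which may in part be technical. In bulk RNA, fewer cells that express a gene and less RNA per cell cannot be told apart.

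The 10 genes did not sit at a common level. Levels were set side by side per kilobase of annotated exon over the 8 libraries of each cell type in cohort 2, as a description, and a gene whose transcripts use fewer of its exons is understated on this scale. In HSCs the order was *Dnmt1* (21.5 ± 3.26 CPM per kb, SD, n = 8), *Ezh1* (17.4 ± 2.22), *Asxl1* (13.4 ± 1.63), *Dnmt3b* (9.91 ± 1.36), *Uhrf1* (7.35 ± 1.93), *Tet3* (7.09 ± 0.73), *Ezh2* (6.89 ± 1.01), *Dnmt3a* (6.64 ± 0.51), *Tet1* (5.41 ± 0.56) and *Tet2* (5.17 ± 0.85). The mean ± SD intervals of neighbours in this order overlapped except those of *Ezh1* and *Asxl1*, *Asxl1* and *Dnmt3b*, and *Dnmt3a* and *Tet1*.

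In CLPs *Uhrf1* came first (64.3 ± 14.6 CPM per kb), followed by *Dnmt1* (46.5 ± 10.7), *Ezh2* (27.4 ± 5.35), *Asxl1* (14.9 ± 3.53), *Tet3* (10.9 ± 2.01), *Dnmt3b* (9.89 ± 2.42), *Ezh1* (6.21 ± 0.78), *Dnmt3a* (6.11 ± 1.28), *Tet1* (4.45 ± 0.84) and *Tet2* (4.14 ± 0.76). *Ezh1* thus moved from the second place in HSCs to the seventh, and *Uhrf1* from the fifth to the first. In GMPs *Dnmt1* (81.8 ± 11.8 CPM per kb) and *Uhrf1* (73.7 ± 11.8) led, with overlapping mean ± SD intervals, and *Ezh2* (26.4 ± 3.93), *Asxl1* (16.5 ± 2.34), *Tet3* (13.3 ± 1.89), *Dnmt3b* (9.88 ± 1.89), *Tet2* (9.65 ± 1.30), *Dnmt3a* (7.46 ± 1.11), *Ezh1* (5.49 ± 0.47) and *Tet1* (3.32 ± 0.50) followed. The gap from the leading pair to *Ezh2* exceeded the SDs in both progenitors, as did those from *Ezh2* to *Asxl1*, from *Dnmt3b* to *Ezh1* in CLPs, and from *Dnmt3a* to *Ezh1* and from *Ezh1* to *Tet1* in GMPs.

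**Figure D1:**
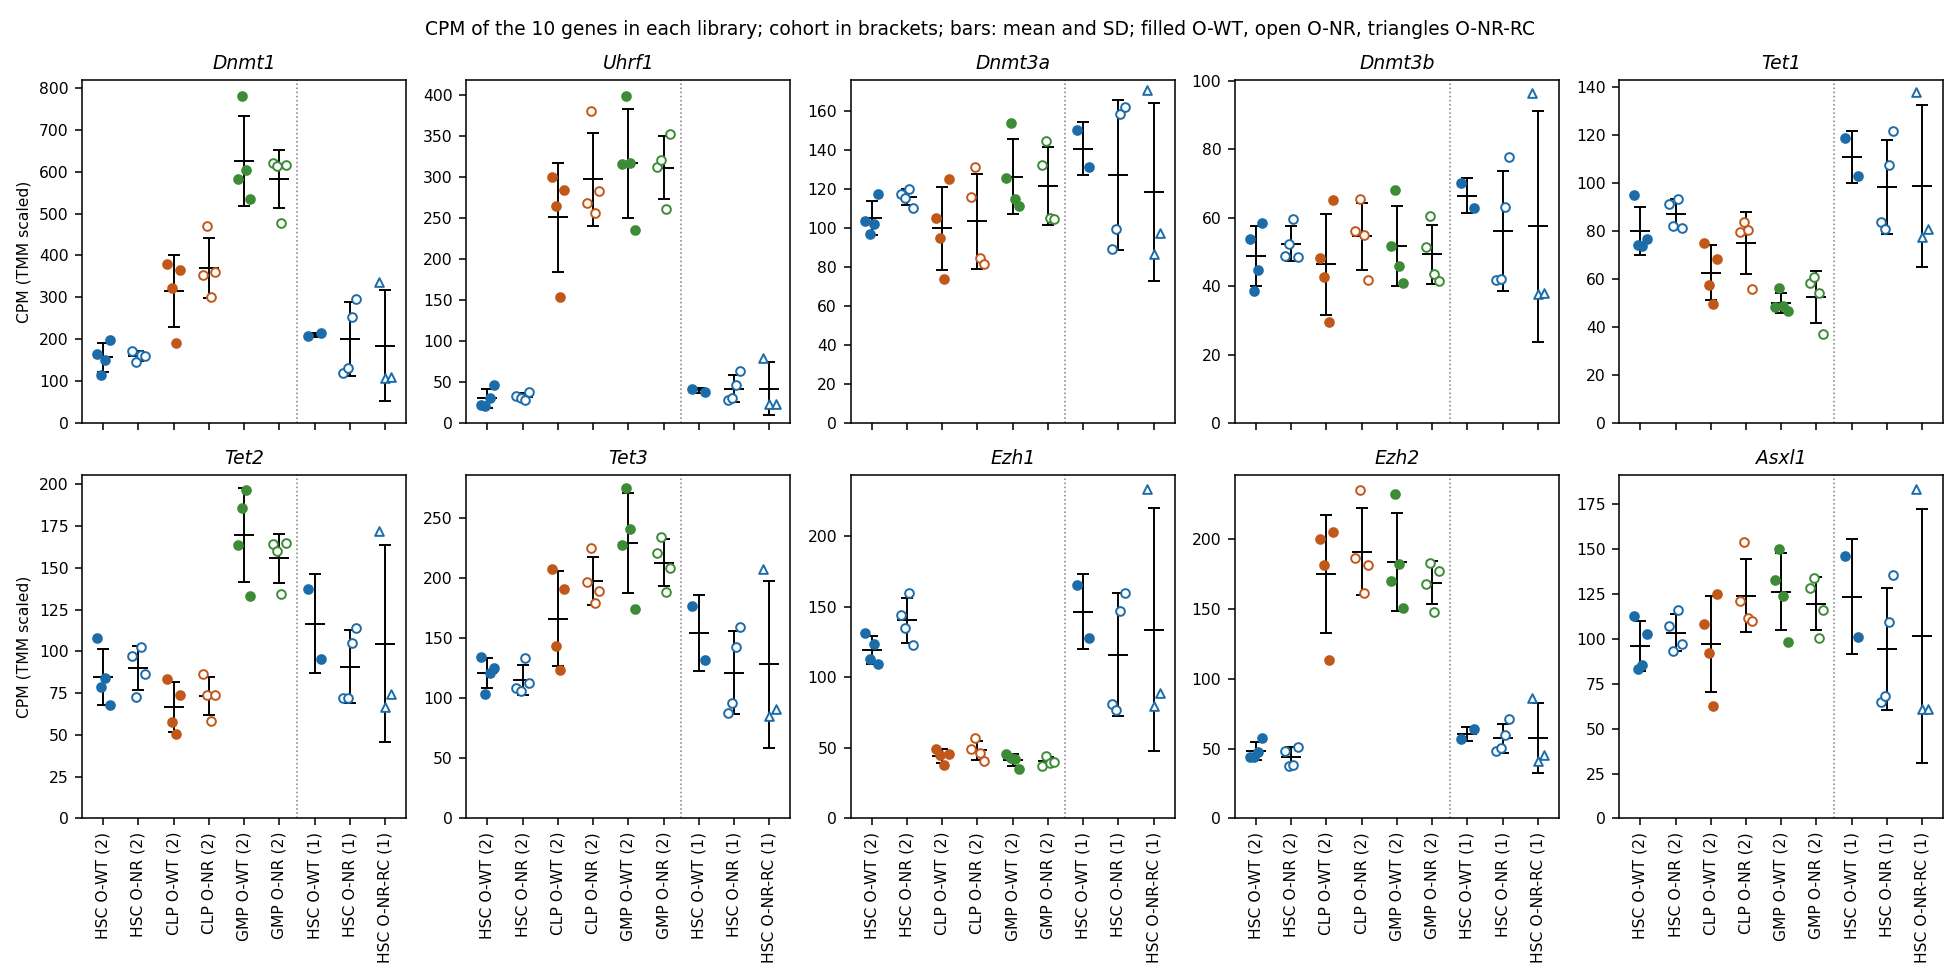
Level of each member in every library, in CPM on a linear axis from 0; columns are the 9 groups, with the cohort in brackets, points are libraries and bars are the mean and SD. *Uhrf1* lies at 21.4 to 46.8 CPM in HSCs of cohort 2 and at 154 to 398 CPM in CLPs and GMPs, and *Ezh1* runs the other way.

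The first question was how the members differ between stem cells and the lymphoid and myeloid progenitors of the same age. The maintenance genes and *Ezh2* were higher in both progenitors than in HSCs, and *Ezh1* was lower in both. *Tet2* and *Tet3* were higher and *Tet1* lower in GMPs, the last a call that was lost in some alternatives. The 2 genes for de novo methylation were not called in any comparison of cell types by the main test. In O-WT mice 5 of 10 members were called in CLPs against HSCs at an adjusted p below 0.05, against 28.8% of the 22573 genes tested, 4 of them higher (8.52% of genes) and 1 lower (20.2%). In GMPs against HSCs 7 of 10 were called, against 43.1% of genes, 5 of them higher (19.4% of genes) and 2 lower (23.7%). In GMPs against CLPs 3 of 10 were called, against 59% of genes, all 3 of them higher (26.3% of genes, with 32.7% lower). The O-NR libraries repeated these counts in other samples, with 5 members called in CLPs against HSCs (31.5% of genes), 4 higher and 1 lower (11% and 20.5%), and 7 in GMPs against HSCs (36.5%), 5 higher and 2 lower (16.1% and 20.4%). In GMPs against CLPs of O-NR 3 were called (39.2%), 2 higher and 1 lower (19.2% and 20.1%). At an unadjusted p below 0.01, in the same order, the members numbered 5, 7 and 2 in O-WT (27.2%, 37.6% and 47% of genes) and 5, 7 and 3 in O-NR (29.1%, 33.9% and 33.2%). Of all genes called in O-WT, 45.1% were higher in GMPs against HSCs and 44.6% in GMPs against CLPs with TMM scaling, and 62.1% and 56.6% with DESeq2. In O-NR the share higher was 35.0% in CLPs and 44.1% in GMPs against HSCs with TMM, and 45.5% and 55.3% with DESeq2. All adjusted p-values are from the quasi-likelihood test of edgeR, adjusted by Benjamini-Hochberg over all genes tested, and every log2 change of this section is from that fit of 24 libraries.

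*Dnmt1*, the maintenance methyltransferase, stood at 165, 114, 152 and 198 CPM in the 4 O-WT libraries of HSCs. It stood at 379, 322, 192 and 366 CPM in CLPs. It reached 582, 781, 604 and 534 CPM in GMPs. Every GMP library was above every CLP library and every CLP library but replicate 3 was above the highest HSC library, so that CLPs and HSCs overlapped by 1 library. The log2 difference was 1.01 in CLPs against HSCs (SE 0.19, adjusted p = 4.61e-05), 1.98 in GMPs against HSCs (SE 0.20, adjusted p = 2.85e-11) and 0.97 in GMPs against CLPs (SE 0.19, adjusted p = 7.79e-05). With the olfactory receptor level as a covariate the last of these was 0.37 (adjusted p = 0.0456). In O-NR mice the values were 172, 145, 163 and 161 CPM in HSCs, 354, 470, 300.3 and 359.6 CPM in CLPs, and 620, 613, 478 and 615 CPM in GMPs, with no overlap between cell types. The O-NR differences from HSCs were 1.22 and 1.85 on the log2 scale. That of O-NR GMPs from CLPs was 0.63, and with the covariate it was 0.23 and not called (adjusted p = 0.17).

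*Uhrf1*, which recruits DNMT1 to hemimethylated DNA, had the widest range of the 10. It was at 22.7, 21.4, 30.8 and 46.8 CPM in O-WT HSCs. In CLPs it was at 300, 264, 154 and 284 CPM. In GMPs it was at 316, 398, 316 and 236 CPM. The lowest progenitor library held more than the highest HSC library in each case, while CLPs and GMPs overlapped. *Uhrf1* was 8.27-fold higher in CLPs than in HSCs (log2 3.05, SE 0.22, adjusted p = 6.35e-15) and 10.3-fold higher in GMPs (log2 3.36, SE 0.23, adjusted p = 2.83e-16), and its difference between GMPs and CLPs was 0.31 (95% interval -0.10 to 0.73, adjusted p = 0.177). O-NR libraries gave 3.21 and 3.27 for the same differences from HSCs.

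The ratio of *Uhrf1* to *Dnmt1* within a library separated the cell types without any scaling between libraries. Per kilobase it was 0.239 to 0.409 in the 8 HSC libraries of cohort 2, 1.31 to 1.48 in the 8 CLP libraries and 0.764 to 0.991 in the 8 GMP libraries, with no overlap. The 9 HSC libraries of cohort 1 lay at 0.308 to 0.409, the highest at 0.409039 against 0.409001 in the HSCs of cohort 2. These ratios are a description with no test.

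*Dnmt3a* and *Dnmt3b*, the de novo methyltransferases, differed far less between cell types. *Dnmt3a* was at 103, 97.2, 102 and 117 CPM in O-WT HSCs, 105, 94.9, 74.1 and 125 CPM in CLPs and 126, 154, 115 and 112 CPM in GMPs. The 3 groups overlapped. Its log2 difference from HSCs was -0.06 in CLPs (95% interval -0.40 to 0.28, adjusted p = 0.828) and 0.25 in GMPs (95% interval -0.09 to 0.59, adjusted p = 0.214). *Dnmt3b* was at 53.7, 38.7, 44.7 and 58.3 CPM in O-WT HSCs, 48.3, 42.7, 29.5 and 65.1 CPM in CLPs and 51.9, 68.0, 45.8 and 41.0 CPM in GMPs, again overlapping. Its differences from HSCs were -0.06 (95% interval -0.43 to 0.32) and 0.07 (95% interval -0.31 to 0.44). These values depend on the scaling in GMPs, where the median gene stood at -0.42 against HSCs with TMM and at -0.12 with DESeq2's size factors. Less the median of all genes, *Dnmt3a* was at 0.67 with TMM and 0.65 with DESeq2, and DESeq2 called it in GMPs against HSCs (log2 0.53, adjusted p = 0.0357) and against CLPs (log2 0.54, adjusted p = 0.0265). By edgeR *Dnmt3a* was called in GMPs against HSCs without CLP O-WT replicate 3 (0.39, adjusted p = 0.0492) and in GMPs against CLPs without CLP O-WT replicate 4 (0.48, adjusted p = 0.0283). With the olfactory receptor level as a covariate *Dnmt3b* was called lower in GMPs than in CLPs, at -0.46 in O-WT (adjusted p = 0.0444) and -0.56 in O-NR (adjusted p = 0.00365).

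The TET genes took 3 different patterns. *Tet1* was at 95, 74.3, 73.8 and 76.9 CPM in O-WT HSCs, 75.2, 57.4, 49.7 and 68.3 CPM in CLPs and 48.4, 56.2, 48.9 and 46.6 CPM in GMPs. Every GMP library was below every HSC library, whereas CLPs overlapped both. Its log2 difference was -0.69 in GMPs against HSCs (SE 0.16, adjusted p = 0.000531) and -0.34 in CLPs against HSCs (SE 0.16, adjusted p = 0.122). The GMP call was lost with DESeq2 (log2 -0.42, adjusted p = 0.102) and without the filter on low counts (log2 -0.45, adjusted p = 0.251). The median of all genes stood at -0.42 in GMPs against HSCs with TMM. Less the median, *Tet1* was at -0.27 with TMM, -0.30 with DESeq2 and -0.82 with the olfactory receptor covariate. In GMPs against CLPs it was, by the same measure, at 0.11 with TMM and -0.69 with the covariate. In O-NR mice *Tet1* was lower in GMPs than in HSCs by 0.73 and than in CLPs by 0.52 on the log2 scale. Less the median of all genes with TMM, these differences were -0.47 and -0.21. Both calls were lost without the filter on low counts (-0.55, adjusted p = 0.134, and -0.35, adjusted p = 0.374). The second was also lost without any 1 of 7 libraries, all of them HSC libraries but GMP O-WT replicate 4 and GMP O-NR replicate 4 (-0.40 to -0.37, adjusted p = 0.054 to 0.115), and with DESeq2 (-0.37, adjusted p = 0.148). Libraries of other groups enter this comparison only through the shared fit, whose filter, scaling and spread were recomputed without each library.

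*Tet2* was at 108, 78.5, 83.9 and 68.1 CPM in O-WT HSCs and at 83.7, 57.9, 50.7 and 73.8 CPM in CLPs, which overlapped. In GMPs it was at 164, 186, 196 and 133 CPM, above every library of the other cell types. The log2 difference was 0.99 in GMPs against HSCs (SE 0.17, adjusted p = 6.66e-06), 1.32 in GMPs against CLPs (SE 0.17, adjusted p = 5.47e-08) and -0.33 in CLPs against HSCs (SE 0.17, adjusted p = 0.157). O-NR libraries gave 0.79 and 1.08 for the GMP differences, both called. *Tet2* and *Tet1* therefore diverged in GMPs. Their ratio per kilobase was 0.811 to 1.04 in HSCs, 0.662 to 1.22 in CLPs and 2.27 to 4.07 in GMPs, where no library fell into the range of the other cell types.

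*Tet3* was at 135, 104, 121 and 125 CPM in O-WT HSCs, 208, 143, 123 and 191 CPM in CLPs and 228, 275, 241 and 174 CPM in GMPs. HSCs and GMPs did not overlap, and CLPs overlapped both. It was 0.91 higher on the log2 scale in GMPs than in HSCs (SE 0.17, adjusted p = 1.8e-05), with the call kept in 29 of 29 alternative settings. The difference of 0.47 in CLPs against HSCs (SE 0.17, adjusted p = 0.0294) was called in only 14 of 29 alternative settings, whose values ran from 0.32 to 0.68, and was lost with the replicate block (0.46, adjusted p = 0.0589) and without any 1 of 12 libraries, among them HSC O-WT replicate 2 and CLP O-WT replicates 1 and 4 (0.32 to 0.45, adjusted p = 0.0519 to 0.222). In O-NR mice *Tet3* was 0.78 higher in CLPs than in HSCs (adjusted p = 0.00022), with no overlap. In GMPs against CLPs it was 0.44 higher in O-WT (adjusted p = 0.0249), a call lost without CLP O-WT replicate 3 or GMP O-WT replicate 2 or 3 (adjusted p = 0.0544 to 0.098) and in the fit of the 12 O-WT libraries alone (0.39, adjusted p = 0.0641). With the olfactory receptor covariate it was -0.04. The same difference was 0.09 in O-NR (adjusted p = 0.662).

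The messenger RNAs of the 2 PRC2 catalytic subunits differed in opposite directions between stem cells and progenitors. *Ezh1* was at 131, 113, 124 and 109 CPM in O-WT HSCs, at 49.2, 44.7, 37.5 and 45.5 CPM in CLPs and at 45.5, 42.7, 42.0 and 35.1 CPM in GMPs. *Ezh2* was at 44.0, 44.0, 47.4 and 57.6 CPM in HSCs, at 200.3, 182, 113 and 206 CPM in CLPs and at 170.4, 233, 182 and 151 CPM in GMPs. For both genes all HSC libraries lay outside the range of the progenitors and CLPs and GMPs overlapped. *Ezh1* was 2.67-fold lower in CLPs than in HSCs (log2 -1.42, SE 0.15, adjusted p = 1.27e-10) and *Ezh2* 3.66-fold higher (log2 1.87, SE 0.18, adjusted p = 1.78e-11). In GMPs against HSCs *Ezh1* was at -1.54 (SE 0.15, adjusted p = 8.36e-12) and *Ezh2* at 1.92 (SE 0.18, adjusted p = 5.93e-12). In GMPs against CLPs the log2 differences were -0.12 for *Ezh1* (95% interval -0.42 to 0.17) and 0.04 for *Ezh2* (95% interval -0.31 to 0.40).

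The O-NR libraries showed the same opposite differences. *Ezh1* was at 144, 135, 160 and 122 CPM in HSCs against 40.5 to 56.7 CPM in CLPs and 37.4 to 44.3 CPM in GMPs. *Ezh2* was at 48.3, 37.3, 38.0 and 51.3 CPM in HSCs against 162 to 236 CPM in CLPs and 148 to 183 CPM in GMPs. The ratio of *Ezh2* to *Ezh1* per kilobase was 0.265 to 0.588 in the 8 HSC libraries of cohort 2, 0.385 to 0.736 in the 9 HSC libraries of cohort 1, 3.37 to 5.03 in CLPs and 4.18 to 6.07 in GMPs. It was below 1 in all 17 HSC libraries and above 1 in all 16 progenitor libraries.

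**Figure D2:**
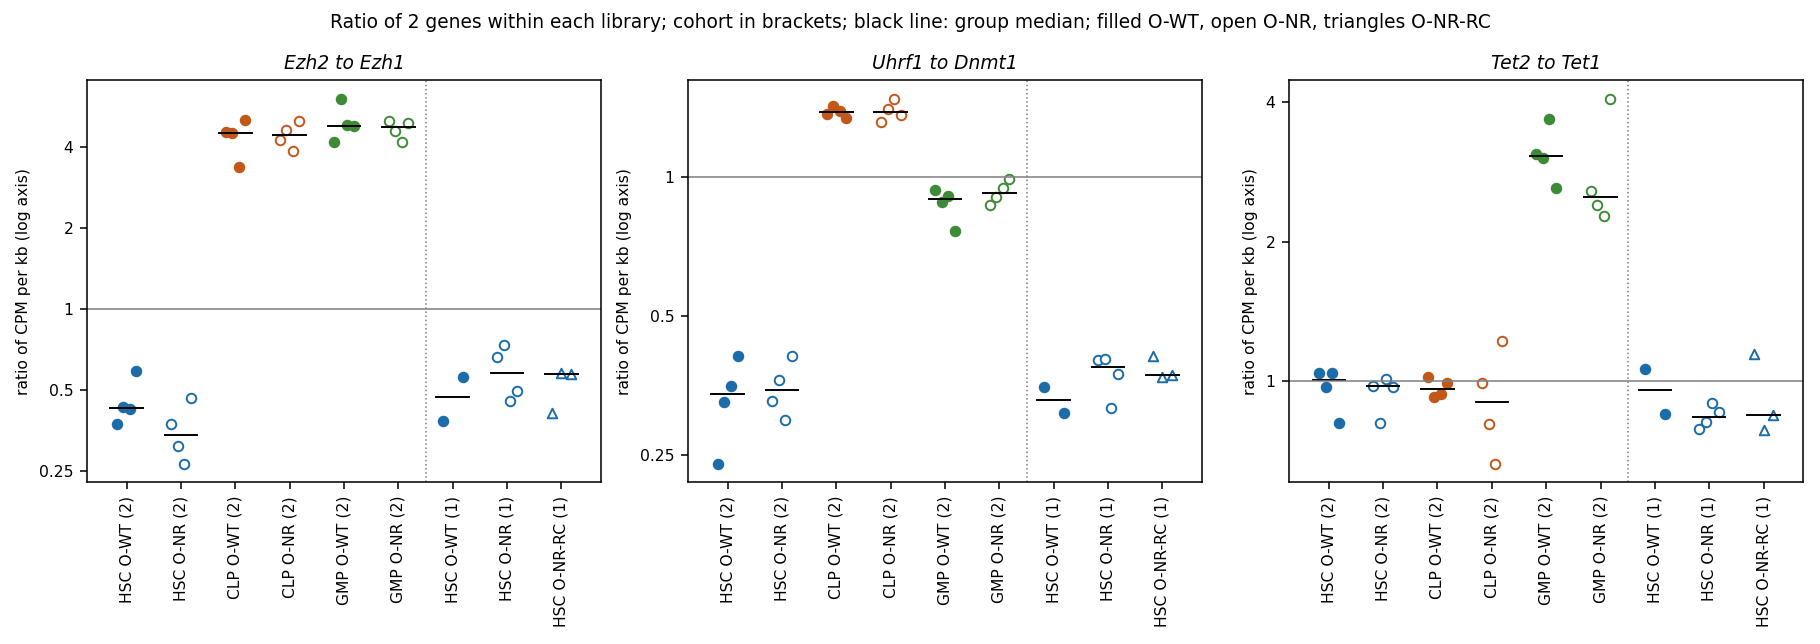
Ratio of CPM per kb of *Ezh2* to *Ezh1*, *Uhrf1* to *Dnmt1* and *Tet2* to *Tet1* within each library, on log axes; points are libraries, black lines are group medians and the cohort is in brackets. The *Ezh2* to *Ezh1* ratio is at most 0.736 in HSCs and at least 3.37 in CLPs and GMPs, and the *Tet2* to *Tet1* ratio stands above 2 only in GMPs.

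*Asxl1*, the Polycomb-associated member, was at 113, 83.3, 85.6 and 103 CPM in O-WT HSCs, 109, 92.1, 62.9 and 125 CPM in CLPs and 133, 150, 124 and 98.5 CPM in GMPs. The groups overlapped. Its log2 difference from HSCs was 0.03 in CLPs (95% interval -0.32 to 0.38, adjusted p = 0.916) and 0.38 in GMPs (95% interval 0.03 to 0.73, adjusted p = 0.071). DESeq2 called the GMP difference (log2 0.65, adjusted p = 0.0159), and with the olfactory receptor level as a covariate it was 0.02. Without any 1 of 10 libraries, GMP O-WT replicate 4 among them, edgeR called it too (0.48 to 0.60, adjusted p = 0.00915 to 0.0281).

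With TMM scaling replicate 3 of the O-WT CLPs held the lowest O-WT CLP value of all 10 members. This library carried the highest olfactory receptor level of cohort 2 (7992 CPM). With counts scaled to the library total it was lowest for *Dnmt1*, *Dnmt3b*, *Uhrf1*, *Asxl1* and *Ezh2*. It was then highest for *Ezh1* (59.1 CPM) and in between for *Tet1*, *Tet2*, *Tet3* and *Dnmt3a*. The part of this library in these values was not tested. The calls of *Dnmt1*, *Uhrf1*, *Ezh1* and *Ezh2* against HSCs held in O-WT and in O-NR under 29 of 29 alternatives, those without each library included. Not overlapping between groups were 3, 7 and 2 members in the O-WT comparisons of CLPs with HSCs, GMPs with HSCs and GMPs with CLPs, against 26.7%, 38% and 43% of all genes tested.

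**Figure D3:**
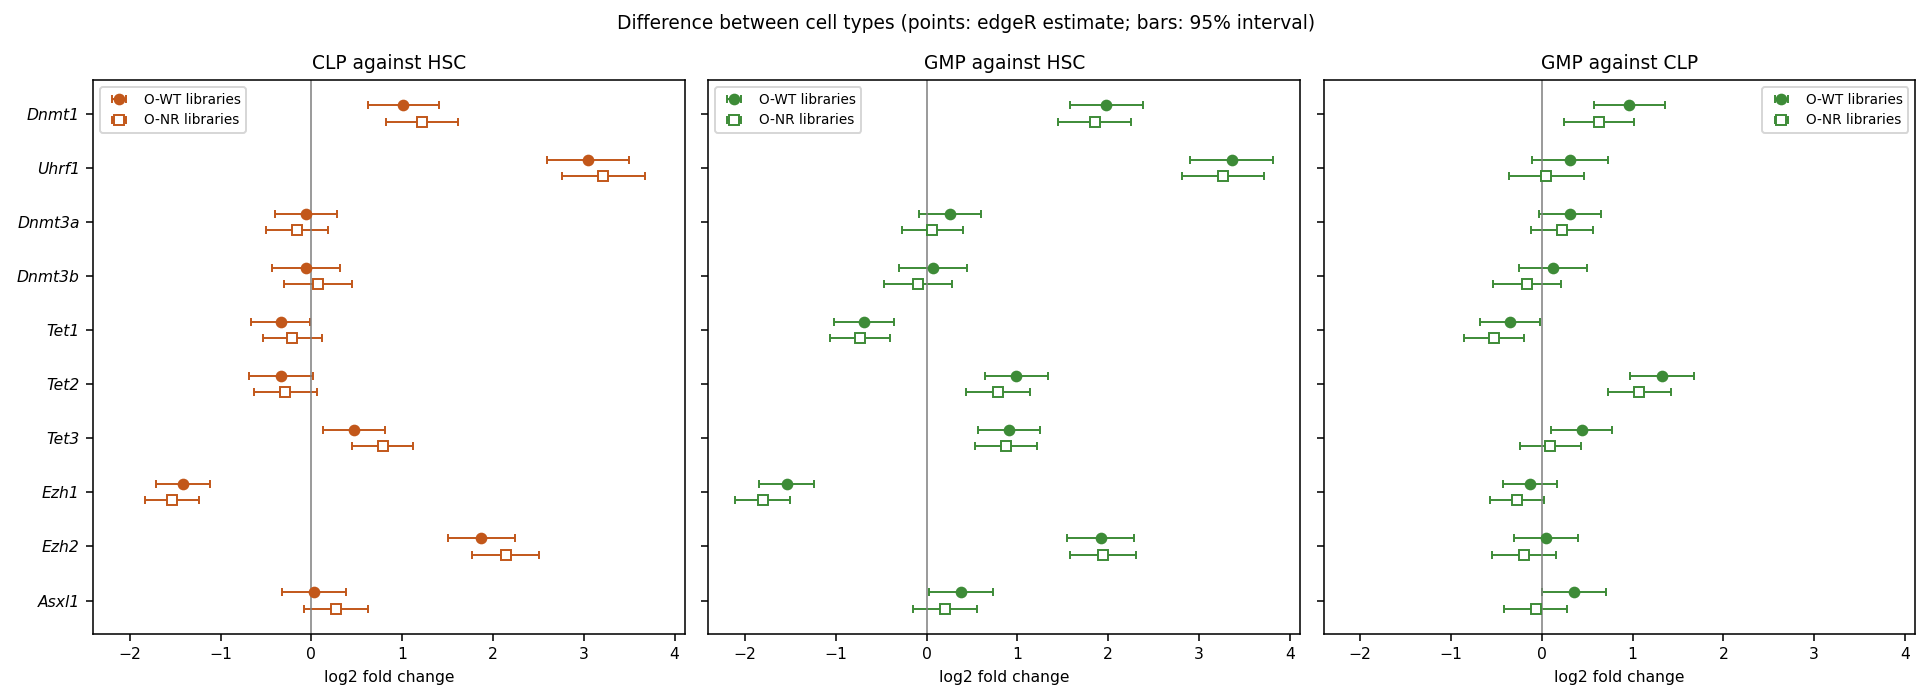
Log2 fold change of each member between cell types, with 95% intervals, in O-WT and in O-NR libraries of cohort 2 from the fit of 24 libraries. *Uhrf1* stands near 3 against HSCs in CLPs and GMPs of both treatments, *Ezh1* stands below -1.4 against HSCs, and the intervals of *Dnmt3a* and *Dnmt3b* include 0.

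Genes that work with the members were taken as 7 lists of 141 genes in all and are given as counts and medians with no test of a list. Of all 22573 genes tested in O-WT, 1924 were called higher and 4567 lower in CLPs than in HSCs. In GMPs against HSCs 4385 were called higher and 5347 lower. The medians of all genes given with the first list hold for the lists after it. Of 26 genes of S phase and mitosis, 26 were called higher in CLPs than in HSCs (median log2 1.96, all genes 0.06) and 26 in GMPs than in HSCs (median 2.76, all genes -0.42). *Rrm2*, a subunit of ribonucleotide reductase, was at 3.93 and 4.50, and *Top2a*, which untangles replicated chromosomes, at 3.82 and 4.03. *Dnmt1*, *Uhrf1* and *Ezh2* were higher in the same libraries, and the part of dividing cells in the member differences was not tested.

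Among 17 other writers and readers of DNA methylation and their cofactors, 5 were higher and 3 lower in CLPs than in HSCs, and 8 were higher and 3 lower in GMPs (medians 0.0036 and 0.37). *Hells*, a remodeller needed for normal methylation, was at 2.03 and 2.81, and *Zbtb4*, which binds methylated CpG, at -2.09 and -2.55. Of 17 genes of the TET pathway and of demethylation, 1 was higher and 5 lower in CLPs, and 8 were higher and 6 lower in GMPs (medians -0.09 and -0.06). *Idh1*, which makes the cofactor of TET enzymes, fell by 1.18 on the log2 scale in CLPs and was 2.18 higher in GMPs. *Idh2*, its mitochondrial counterpart, was at 0.34 in CLPs, not called (adjusted p = 0.213), and was 1.97 higher in GMPs.

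Of 12 other PRC2 subunits and accessory proteins, 2 were higher and 3 lower in CLPs than in HSCs, and 8 were higher and 2 lower in GMPs (medians 0.08 and 0.69). The core subunit *Suz12* was at 0.76 and 1.32, and the accessory subunit *Phf1* at -1.63 and -2.01. Of 24 genes of PRC1 and the BAP1-ASXL complex, 1 was higher and 9 lower in CLPs, and 4 were higher and 7 lower in GMPs. Their medians were -0.25 and -0.08, against 0.06 and -0.42 over all genes. *Cbx7*, which reads the mark that PRC2 sets, was at -2.41 and -2.92.

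Of 14 tested genes of the methyl donor cycle, 5 were higher and 4 lower in CLPs, and 8 were higher and 1 lower in GMPs (medians 0.14 and 0.70). *Shmt1*, which loads folate with a carbon unit, was at 1.36 and 2.16. Of 30 other genes recurrently mutated in clonal hematopoiesis, 3 were higher and 10 lower in CLPs, and 14 were higher and 3 lower in GMPs (medians -0.11 and 0.39). *Kit*, the stem cell factor receptor, was at -2.70 and -1.001, and *Calr*, a chaperone of the endoplasmic reticulum, at -0.45 (not called, adjusted p = 0.135) and 3.04.

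The genes whose log2 CPM followed a member most closely over the 24 libraries of cohort 2 are given as a description. These libraries share cell types, depth and a common scaling, so that any gene set by cell type reaches a high r. *Dnmt1* was closest to *Mcm3* (r = 0.994), a subunit of the replicative helicase, and then to *H2afz* and *Tfdp1*. *Uhrf1* was closest to the histone genes *Hist1h2ag* (r = 0.995), *Hist1h1a* and *Hist1h4k*, and *Ezh2* to *Hist1h2bb* (r = 0.994), *Hist2h4* and *Hist1h2ak*. Histone genes are near-identical in sequence, and how shared reads were counted was not given in the sources used here. *Ezh1* was closest to *Sgms1* (r = 0.985), *Meis1*, an HSC marker, and *Cbx7*, the PRC1 gene above.

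The remaining members had looser company. *Tet2* was closest to *Osbp* (r = 0.981), *Klhl5* and *Srp72*, *Tet3* to *Cep192* (r = 0.973), *Cmtm7* and *Rbbp4*, *Asxl1* to *Pum2* (r = 0.966), *Maz* and *Hnrnph1*, and *Tet1* to *Arhgap25* (r = 0.939), *Slc25a23* and *Ripor2*. *Dnmt3a* was closest to *Zfp146* (r = 0.907) and *Uspl1*, and *Dnmt3b* to *Ankrd10* (r = 0.904), *Mepce* and *Zfp26*. Between members the highest values were 0.989 for *Uhrf1* with *Ezh2* and 0.948 for *Dnmt1* with *Tet3*, the lowest was -0.945 for *Uhrf1* with *Ezh1*, and *Dnmt3a* with *Dnmt3b* stood at 0.764.

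The next question was whether nicotinamide riboside changes these genes. In HSCs of cohort 2 no member was called, with 0% of the 17364 genes tested called by edgeR's quasi-likelihood test, 667 genes at an unadjusted p below 0.05 and 7 genes called by DESeq2. The members' log2 changes in O-NR against O-WT ran from -0.19 to 0.18, and their 95% intervals stayed between -0.47 and 0.45. *Ezh1* had the highest value. The O-NR levels of *Ezh1* of 144, 135, 160 and 122 CPM overlapped the O-WT levels of 131, 113, 124 and 109 CPM, and the log2 change was 0.18 (95% interval -0.04 to 0.41, unadjusted p = 0.0971, adjusted p = 0.995).

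*Ezh2* had the lowest value in HSCs, -0.19 (95% interval -0.47 to 0.09, unadjusted p = 0.162), with 48.3, 37.3, 38.0 and 51.3 CPM in O-NR against 44.0, 44.0, 47.4 and 57.6 CPM in O-WT. For *Dnmt3a* the O-NR HSCs were at 118, 115, 120 and 110.4 CPM against 103, 97.2, 102 and 117 CPM in O-WT, a log2 change of 0.09 (95% interval -0.12 to 0.30). For *Tet2* they were at 97.5, 72.8, 103 and 86.3 CPM against 108, 78.5, 83.9 and 68.1 CPM, a change of 0.04 (95% interval -0.23 to 0.31). In each case the 2 groups overlapped. B and plasma cell markers differed between these groups, summing to 77.2 to 735 CPM in O-WT and 25.1 to 125 CPM in O-NR, and their part was not tested.

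In CLPs no member was called either, with 0% of 19909 genes called by edgeR, 639 at an unadjusted p below 0.05 and 0 called by DESeq2. The log2 changes were 0.01 to 0.31, so that all 10 members lay at or above 0. Their median was 0.20 where the median of all genes was -0.0050. The 7 lists also had medians above that of all genes. These ran from 0.07 for PRC1 and the BAP1-ASXL complex to 0.25 for the methyl donor cycle. *Asxl1* had the highest value, with 121, 154, 112 and 109.9 CPM in O-NR against 109, 92.1, 62.9 and 125 CPM in O-WT (log2 0.31, 95% interval -0.10 to 0.73, unadjusted p = 0.13). *Dnmt1* was at 0.20 (95% interval -0.28 to 0.68). The groups overlapped for every member. With TMM scaling the lowest O-WT library of all 10 was replicate 3, that with the highest olfactory receptor level, whose part was not tested. With counts scaled to the library total it was the lowest for only some of the members.

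In GMPs no member was called, with 0% of 13486 genes called by edgeR, 648 at an unadjusted p below 0.05 and 10 called by DESeq2. The log2 changes ran from -0.07 for *Tet2* to 0.13 for *Tet1*, with 95% intervals between -0.24 and 0.39. *Dnmt1* was at 620, 613, 478 and 615 CPM in O-NR against 582, 781, 604 and 534 CPM in O-WT, with a change of -0.05 (95% interval -0.21 to 0.11). At an unadjusted p below 0.01 there was no member in HSCs, CLPs or GMPs, against 0.726%, 0.412% and 0.986% of genes. In these 3 comparisons 0 of 10 members were without overlap between groups, against 2.14%, 2.4% and 1.42% of genes tested.

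**Figure D4:**
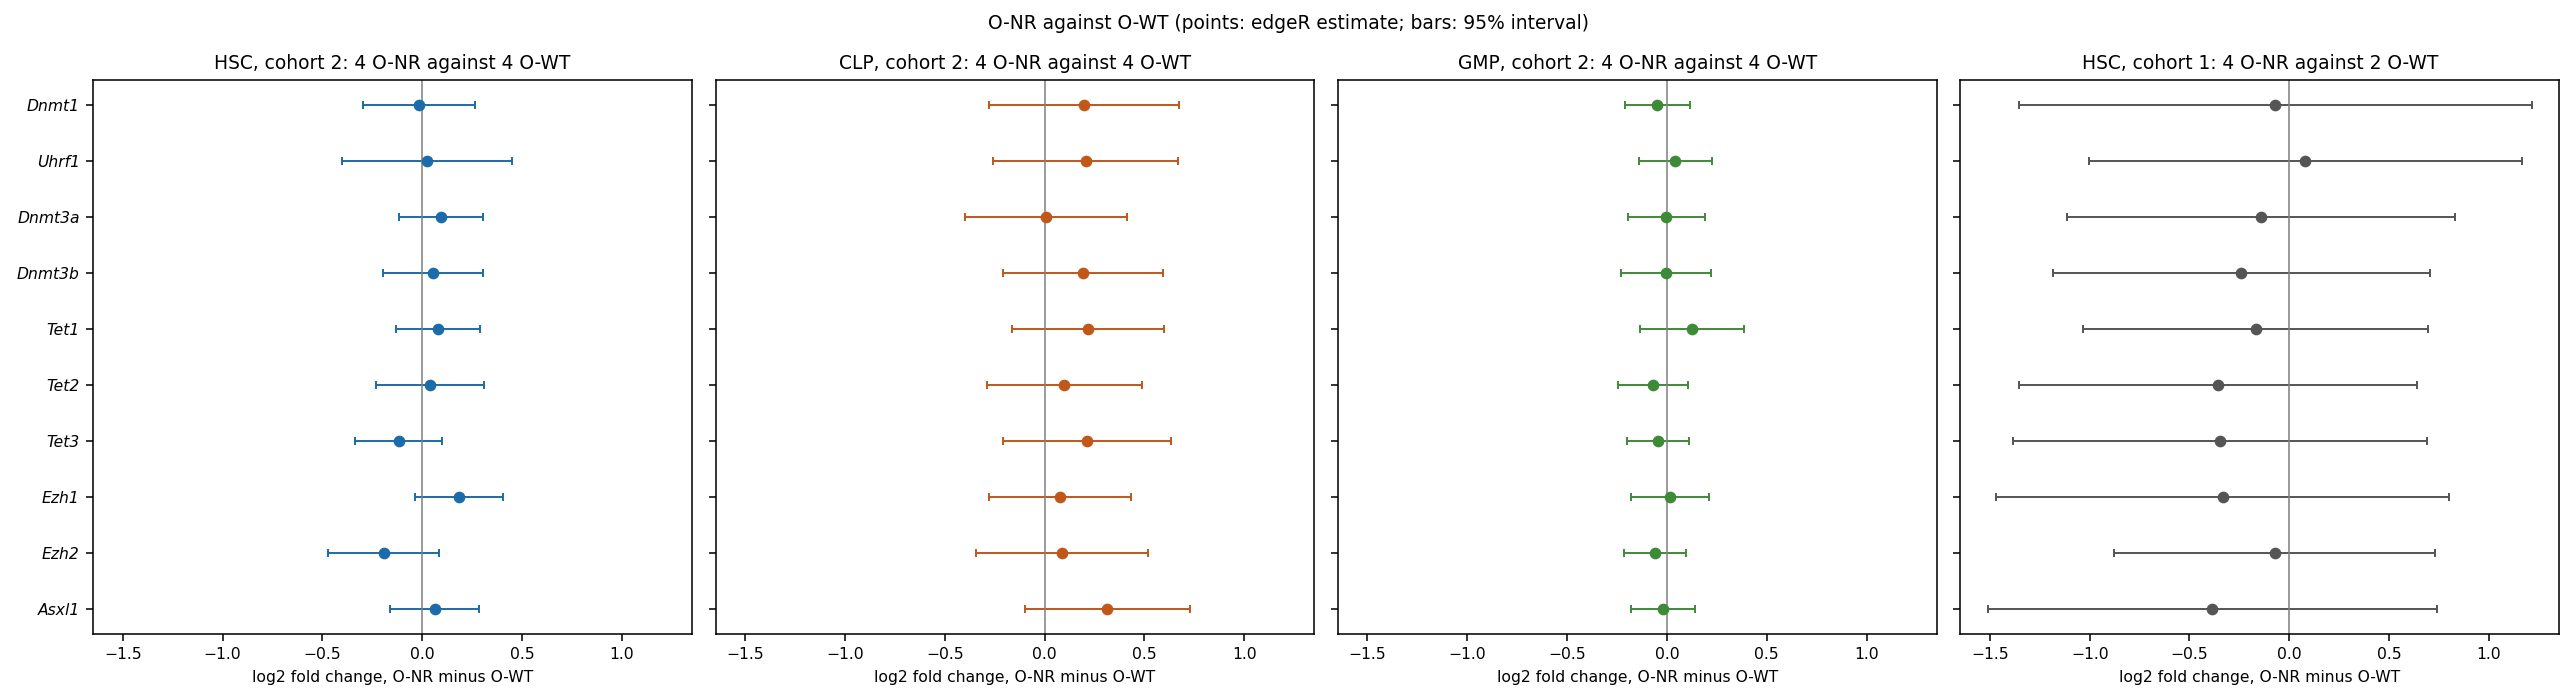
Log2 fold change of each member in O-NR against O-WT within HSCs, CLPs and GMPs of cohort 2 (4 libraries against 4) and, at the right, within HSCs of cohort 1 (4 against 2), with 95% intervals. Every interval includes 0, the values of cohort 2 run from -0.19 to 0.31 and the intervals are wider for each member in cohort 1 than in cohort 2.

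The NR effect was also compared between cell types. No member was called for CLPs against HSCs (0.00443% of 22573 genes called, 1 gene), for GMPs against HSCs (0.00443%, 1 gene) or for GMPs against CLPs (0% of genes, 803 at an unadjusted p below 0.05 and 0 called by DESeq2). No member reached an unadjusted p below 0.01 in these (0.421%, 0.133% and 0.439% of genes). The largest difference among members was -0.42 on the log2 scale in GMPs against CLPs (unadjusted p = 0.0946). No gene of the 7 lists was called in O-NR against O-WT in HSCs, CLPs or GMPs of cohort 2.

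Cohort 1 asked the same of HSCs, with the washout group beside it. The 9 libraries fell apart by their olfactory receptor level rather than by group. Replicates 1 and 2 of O-NR and replicates 2 and 3 of O-NR-RC held 13713 to 14680 CPM of these reads, and the other 5 libraries held 4273 to 8714 CPM. With TMM scaling all 10 members were lower in each of those 4 libraries than in each of the other 5. The same held for 28.4% of the 33350 genes tested, and 23.8% were higher in each. With counts scaled to the library total *Tet1* was at 100.3 to 107.0 CPM in the 4 libraries and 91.7 to 102.8 CPM in the others. On that scale the libraries with and without the high level also overlapped for *Tet2*, *Dnmt3a*, *Uhrf1* and *Ezh2*. This is a description of the libraries, with no test.

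*Dnmt1* was at 207 and 214 CPM in O-WT, at 120.4, 132, 253 and 297 CPM in O-NR and at 337, 108 and 109 CPM in O-NR-RC. *Ezh1* was at 165 and 128 CPM in O-WT, at 80.9, 76.8, 147 and 160 CPM in O-NR and at 233, 79.3 and 88.5 CPM in O-NR-RC. *Tet2* was at 138 and 95.6 CPM in O-WT, at 72.2, 71.8, 105 and 114 CPM in O-NR and at 172 and then 66.5 and 74.4 CPM in O-NR-RC. In each gene the low values with TMM scaling are those of the 4 libraries with the high olfactory receptor level, and the groups overlapped. With counts scaled to the library total this held for *Dnmt1* and *Ezh1*. The lowest *Tet2* value was then 88.2 CPM in O-NR replicate 4, which lacked the high olfactory receptor level. Reads at the olfactory receptor level per kilobase equalled 42.2% to 49.1% of the *Tet2* reads in those 4 libraries, and less that level *Tet2* was at 33.9 to 43.0 CPM there. *Asxl1* was at 60.8 to 68.1 CPM in these 4 libraries and at 101 to 184 CPM in the other 5, and *Dnmt3a* at 87.0 to 99.4 CPM and 131 to 171 CPM. The libraries with the high level held 8897256 to 15474492 counted reads and the others 13728764 to 23816042. The part of depth or of the olfactory receptor level in the members' values was not tested.

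**Figure D5:**
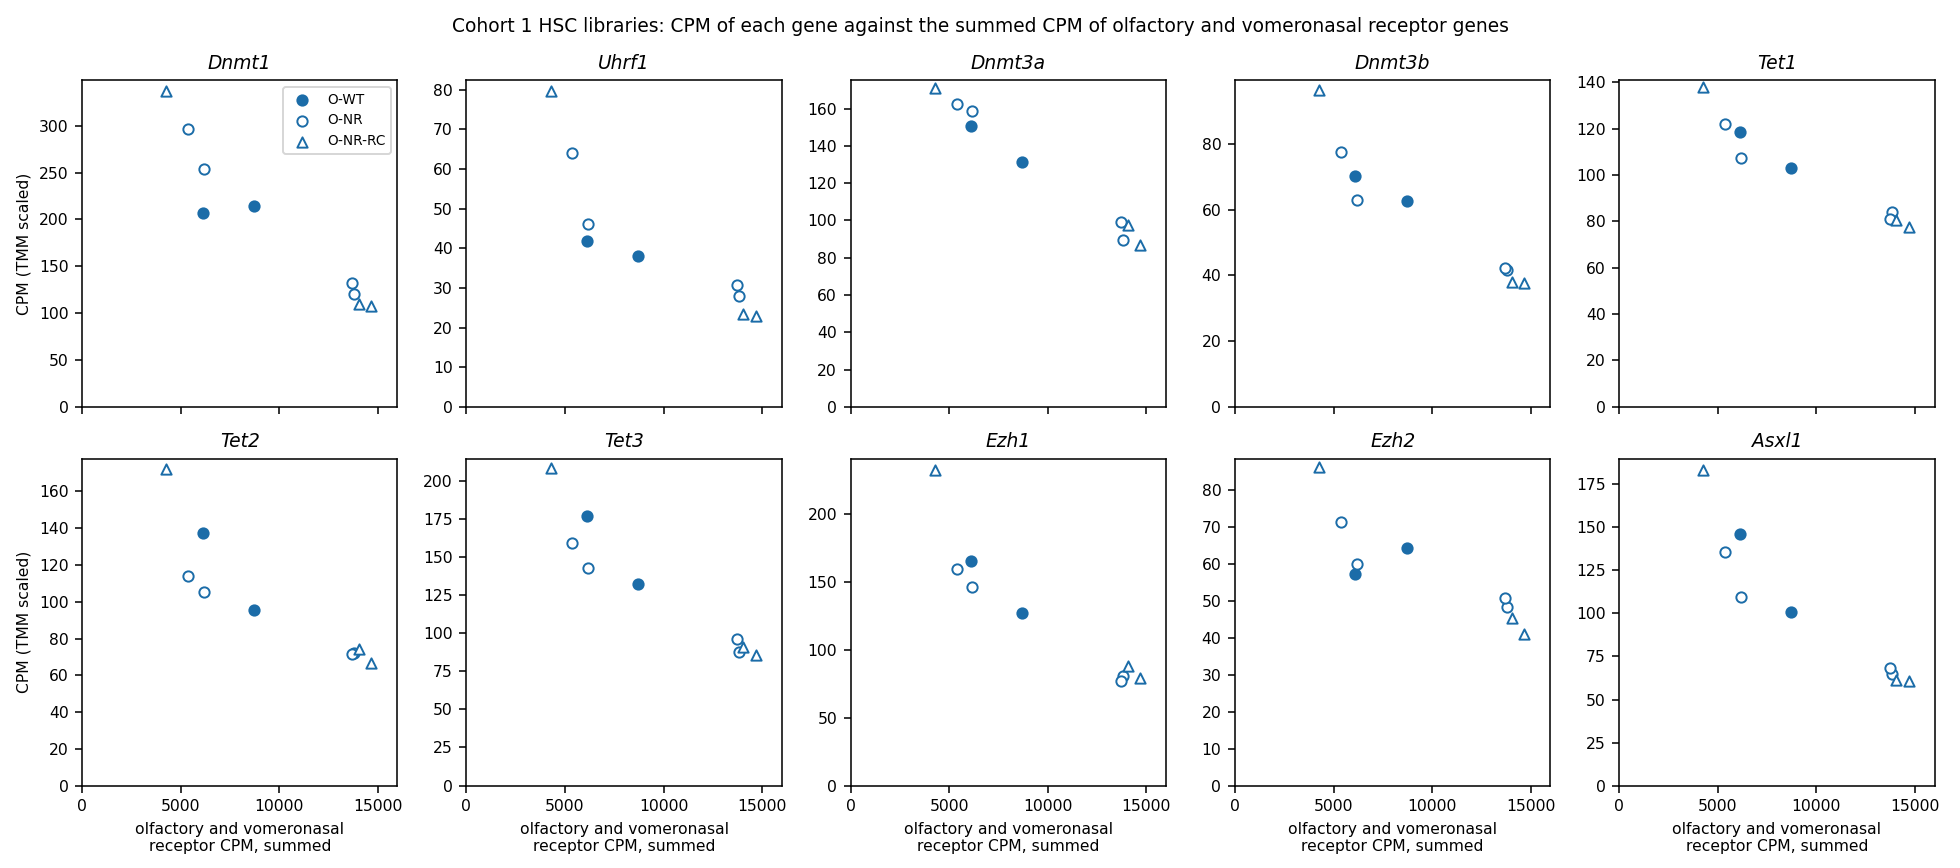
Level of each member in the 9 HSC libraries of cohort 1, in CPM, against the summed CPM of olfactory and vomeronasal receptor genes; symbols mark the 3 treatment groups. With TMM scaling the 4 libraries at 13713 to 14680 CPM of these receptors hold the 4 lowest values of each member.

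No member was called in cohort 1. In O-NR against O-WT the log2 changes were -0.39 to 0.08, with the widest 95% interval that of *Dnmt1*, -1.35 to 1.22 (0% of 33350 genes called by edgeR, 182 at an unadjusted p below 0.05, 0 called by DESeq2). In O-NR-RC against O-NR they were -0.12 to 0.20 (0% called, 97 at an unadjusted p below 0.05, 2 called by DESeq2), and in O-NR-RC against O-WT -0.28 to 0.07 (0% called, 265 at an unadjusted p below 0.05, 0 called by DESeq2). These comparisons share their O-WT and O-NR libraries. The groups overlapped for 10 of 10 members in each, against 5.84%, 1.22% and 8.1% of genes without overlap. None of the 10 reached an unadjusted p below 0.01 (0.048%, 0.036% and 0.078% of genes). Intervals this wide do not show that levels were alike.

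Over both cohorts the O-NR log2 changes in HSCs were -0.17 to 0.08, with no member called (0% of 23413 genes called by edgeR, 216 at an unadjusted p below 0.05, 0 by DESeq2) and none at an unadjusted p below 0.01 (0.103% of genes). The NR effect differed most between the cohorts for *Ezh1*, by 0.52 in cohort 2 against cohort 1 (unadjusted p = 0.114, adjusted p = 0.979). This difference was 0.18 in cohort 2 less -0.33 in cohort 1, and no member was called (0% of genes, 436 at an unadjusted p below 0.05, 0 by DESeq2) or reached an unadjusted p below 0.01 (0.137%). In all 11 comparisons that involve NR, and under every alternative run for them, 0 of 1680 member values were called, and the smallest adjusted p among these was 0.302.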

How the data were processed

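RNA-seq libraries were made with the SMARTer stranded total RNA pico kit, and per the study's methods the authors trimmed reads with Trim Galore, used STAR for alignment to mm10, and obtained gene counts on Gencode M22 through featureCounts. The deposited values are raw counts per gene, used here as deposited. Strand and multimapping settings were not given in the sources used here. Libraries were grouped by the labels, and no 2 libraries of a group agreed within sampling noise (smallest chi-square per degree of freedom 1.96). In O-NR of cohort 1 replicates 1 and 2 stood at 1.96 and replicates 3 and 4 at 3.84, against 53.1 to 71.8 between these pairs. In O-NR-RC replicates 2 and 3 stood at 4.02, against 101.5 and 73.2 with replicate 1. Whether such libraries share a source is not given in the labels.

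Genes were kept where the number of libraries above 3 CPM reached the size of the smallest group, and were tested with edgeR 4.0.16 in R 4.3.3 (TMM, quasi-likelihood test, Benjamini-Hochberg adjusted p below 0.05 over all genes tested), with 24 libraries in 1 fit for cell types and separate fits for NR within a cell type. CPM were TMM-scaled unless scaling to the library total is named, and the correlations used log2 CPM with a prior count of 2. Intervals are 95% and two-sided. DESeq2 1.42.0, no filter, a replicate block, fits of other libraries and leaving out each library were the alternatives, and an olfactory receptor covariate and the subtraction of that level were added after the data were seen. Leaving out a library recomputed the filter, TMM scaling and spread of its fit, so that differences between other groups could move too. The scripts were tested on simulated data. Deviations of same-numbered libraries did not show pairing, with a mean r of -0.03 across cell types and 0.07 between treatments. Single pairs ran from -0.48 to 0.36 and from -0.27 to 0.59. The labels do not say whether equal numbers mark a shared mouse, and this check cannot tell.

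The members and lists were chosen with earlier results of these data known. All members are named, with the 2 genes of smallest p from each list in each O-WT comparison with HSCs and the 3 closest correlates of each member; 3 genes this rule picked are not reported here. Values of *Dnmt3a*, *Tet2*, *Asxl1* and *Ezh2* may hold reads of overlapping antisense genes. Depth of 4792380 to 23816042 counts left each member with at least 210 reads in every library. Intervals cover the spread between libraries.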

Additional observations from a re-analysis of the deposited data

Results flagged for a closer look

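Of 70 groups of 4 libraries tested, 4 held a library that stood apart from the other 3 by Dixon's test (critical value 0.829), where chance alone gives about 1 in 20 groups. *Dnmt1* was at 478.256 CPM in replicate 3 of GMP O-NR, below the next library at 613 CPM. *Tet2* was at 134.106 CPM in the same library, with the next at 160.0 CPM. *Tet1* was at 95.0471 CPM in replicate 1 of HSC O-WT of cohort 2, above the next at 76.9 CPM, and at 55.6809 CPM in replicate 4 of CLP O-NR, below the next at 79.7 CPM. Of the comparisons with HSCs in O-WT, the call of *Tet3* in CLPs was lost without GMP O-NR replicate 3 and without CLP O-NR replicate 4, and *Asxl1* was called in GMPs without HSC O-WT replicate 1. The calls of *Dnmt1*, *Tet2* and *Tet1* against HSCs held without each of these 3 libraries.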

How the results depend on the processing

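The calls of *Dnmt1*, *Uhrf1*, *Ezh1* and *Ezh2* against HSCs held in all 29 alternatives of each comparison, and no alternative called a member in an NR comparison. With the replicate block the only member call to change was that of *Tet3* in CLPs against HSCs (0.46, adjusted p = 0.0589). Reversed in GMPs against CLPs of O-WT with the olfactory receptor covariate, chosen after the data were seen, were *Dnmt3b* (-0.459), *Tet3* (-0.0382) and *Ezh2* (-0.4178), each called in 1 of the 2 fits, and the cause was not tested. *Dnmt3a* (-0.11), *Uhrf1* (-0.23) and *Asxl1* (-0.23) also fell below 0 there, called in neither fit, so that 6 of 10 members changed sign. That covariate moved the median gene from -0.46 to 0.02 there, called 6 members and 4771 genes in O-WT (3 and 13326 without it) and 6 members and 5435 genes in O-NR (3 and 8852), and lost *Dnmt1* in GMPs against CLPs of O-NR (0.23, adjusted p = 0.17). DESeq2 called 5 members in GMPs against CLPs of O-WT. Without each library the members called there ran from 2 to 5, with 5 without CLP O-WT replicate 4.

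Counts of all genes called for NR moved as follows. For the difference in NR effect between CLPs and HSCs (1 gene), DESeq2 called 2, no filter 14, the covariate 2 and leaving out libraries 1 to 2 (2 without CLP O-WT replicate 3). For GMPs against HSCs (1 gene), DESeq2 called 0, no filter 6, the covariate 2 and leaving out libraries 0 to 1 (0 without HSC O-WT replicate 4). In HSCs of cohort 2 (0 genes), DESeq2 called 7, no filter 39, the replicate block 9, the covariate 24, the fit of 24 libraries 1 and leaving out libraries 0 to 7 (above 0 without HSC O-WT replicate 1 or 2 or O-NR replicate 1). In CLPs (0), no filter called 1, the replicate block 3 and leaving out libraries 0 to 1 (1 without O-NR replicate 2). In GMPs (0), DESeq2 called 10, no filter 6 and leaving out libraries 0 to 8 (above 0 without O-WT replicate 1 or O-NR replicate 4). In cohort 1 the covariate called 2 genes in O-NR against O-WT, 18 in O-NR-RC against O-NR and 3 in O-NR-RC against O-WT, DESeq2 called 2 in the second, and leaving out libraries gave 0 to 1 in the second (1 without O-NR-RC replicate 1 or 2) and 0 to 1 in the last (1 without O-NR-RC replicate 2). Over both cohorts the covariate called 1.

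Small NR effects lie under these limits, since 95% intervals reached 0.73 in CLPs and 1.51 below 0 in cohort 1. The reads of *Tet1* and *Tet2* at the olfactory receptor level made up as much as 27.7% and 29.6% in CLPs and 38.6% and 49.1% in HSCs of cohort 1, where *Dnmt3a* and *Tet3* reached at most 37.8%, against at most 4.38% for *Dnmt1* in HSCs, CLPs or GMPs of cohort 2.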
